A study of Arabidopsis thaliana with 8 samples.

Results

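The 36 genes described here make and regulate phenylpropanoids, flavonols, anthocyanins and sinapate esters in Arabidopsis thaliana. They were chosen by locus identifier from the 36796 gene identifiers of 1 RNA-seq count table. The set holds enzymes from phenylalanine ammonia-lyase to the glycosyltransferases and the MYB, bHLH and WD40 factors that control them. The rule uses no measured value, but the genes were chosen with earlier results of these data known. All 36 were found in the table, and 32 had enough counts to be tested. BAN, PAP2, MYB114 and TT2 had too few.

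Poly(A) RNA was sequenced from whole rosettes of Col-0 plants that were 17 days old and had not bolted. There were 4 libraries of the double mutant hta9 hta11 and 4 of wild type, each from a pool of 5 plants, so the spread between libraries is a spread between pools. HTA9 and HTA11 encode copies of the histone variant H2A.Z, and the series title concerns how the balance of H2A.Z variants bears on the repressive histone mark H3K27me3. The labels give no allele or kind of mutation and no agent, and both genotypes share the accession, the soil and the long-day chamber.

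Phenylalanine ammonia-lyase (PAL), cinnamate 4-hydroxylase (C4H) and 4-coumarate:CoA ligase (4CL) turn phenylalanine into coumaroyl-CoA, from which lignin, sinapate esters and flavonoids branch. Chalcone synthase opens the flavonoid branch, flavonol synthase leads to the glycosylated flavonols of leaves, and dihydroflavonol reductase leads to the purple anthocyanins. Early flavonoid genes are switched on by flavonol-specific MYB factors, and late anthocyanin genes by a complex of a MYB, a bHLH and the WD40 protein TTG1.

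Library totals ran from 31611735 to 47467130 counts in hta9 hta11 and from 32027511 to 40635454 counts in wild type. Levels are given as CPM, counts relative to the scaled library size, for libraries 1 to 4 of a genotype in that order. HTA9 was at 60.6, 14.8, 33.4 and 16.5 CPM in hta9 hta11 and 104, 91.5, 99.8 and 86.0 CPM in wild type. HTA11 was at 26.0, 2.98, 14.1 and 3.60 CPM in hta9 hta11 and 54.1, 38.5, 45.4 and 41.6 CPM in wild type, so every mutant library lay below every wild type library for both genes, and libraries 1 and 3 of the mutant kept more than libraries 2 and 4. HTA9 passed the test described below (adjusted p = 0.0457) and HTA11 did not (adjusted p = 0.0924). Of the markers of green leaf, 4 of 4 were abundant (summed level 37894 to 44393 CPM in hta9 hta11 and 41614 to 50317 CPM in wild type). Seed markers summed to 0.348 to 1.14 CPM in hta9 hta11 and 0.114 to 0.566 CPM in wild type. Of 4 root markers 1 had enough counts to be tested, PYK10, and the list summed to 60.7 to 94.7 CPM in hta9 hta11 and 69.7 to 115.9 CPM in wild type. The flower markers, 4 of 4 higher in the mutant at adjusted p under 0.05, summed to 6.26 to 14.1 CPM in hta9 hta11 and 1.45 to 2.27 CPM in wild type. Their part in the results below was not tested.

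Wild type library 4 stood apart from the other wild type libraries for these genes. It was the highest of all 8 libraries for 23 of the 32 tested genes (71.9%), against 14.1% of all 20214 tested genes, and the highest of the 4 wild type libraries for 27 of 32 (84.4%), against 25.1%. Fold changes of the 32 genes are therefore given with all libraries and without it. As it was picked for its high levels of these genes, leaving it out was bound to raise most of these fold changes.

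**Figure D1:**
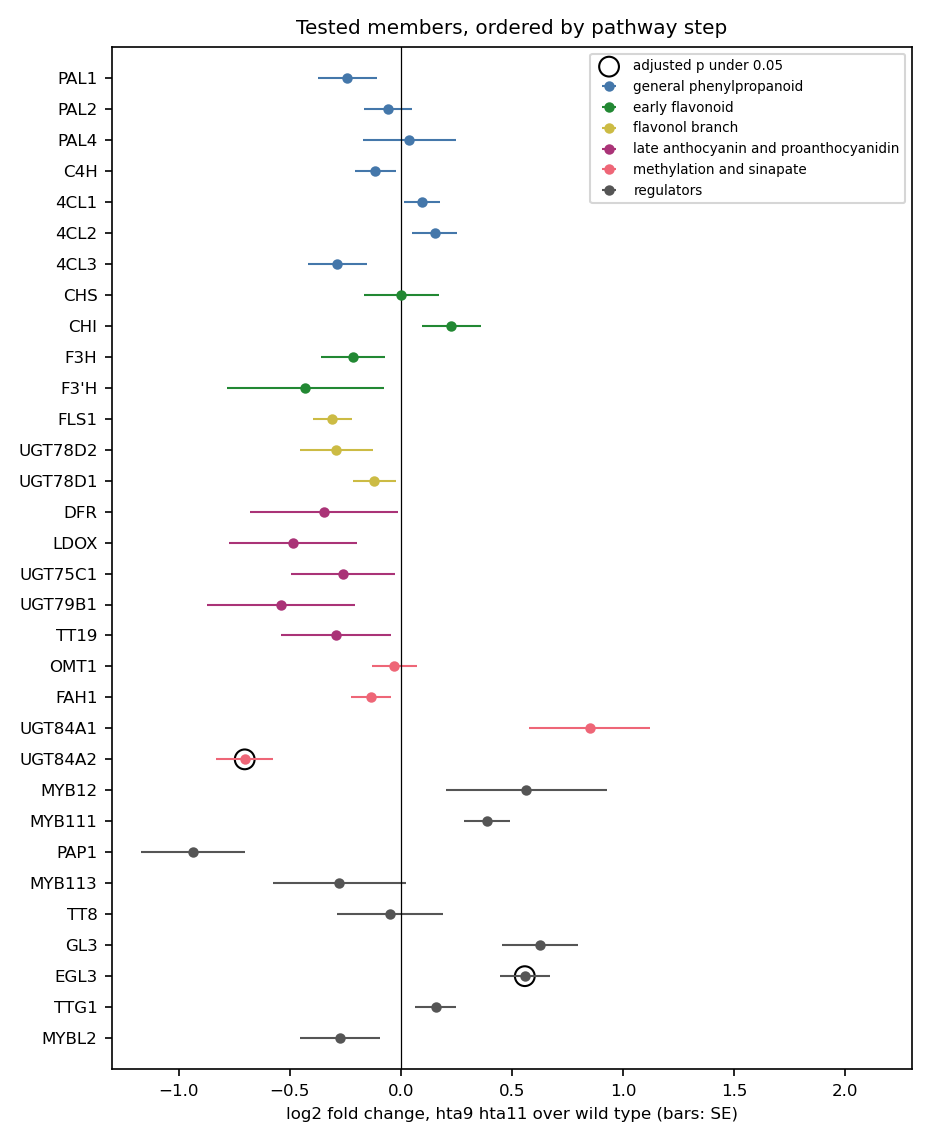
Log2 fold change of hta9 hta11 over wild type (x axis) for the 32 tested genes, ordered by pathway step, with a point for the estimate from 4 libraries each, a bar for its standard error and a ring for an adjusted p under 0.05. UGT84A2 at -0.70 and EGL3 at 0.56 carry rings, and the 5 late anthocyanin genes all lie below 0 with wide bars.

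Across the pathway, 2 of the 32 tested genes passed the test at an adjusted p under 0.05 (6.25%, against 3.74% of all 20214 genes): the sinapate glucosyltransferase gene UGT84A2 fell in hta9 hta11 (1 of 32, against 1.25% of all genes lower) and the bHLH gene EGL3 rose (1 of 32, against 2.49% higher). The 7 general phenylpropanoid genes, 4 early flavonoid genes, 3 flavonol branch genes and 5 tested late genes had no member that passed. Those 19 genes held 1 with an unadjusted p under 0.05, FLS1, which DESeq2 called, and limma-voom called 0 of them. For 7 of 32 genes (21.9%) the libraries of the genotypes did not overlap, against 11.3% of all tested genes. FLS1, UGT84A2 and PAP1 had every mutant library below every wild type library (9.38%, against 5.07% of all tested genes), and UGT84A1, MYB111, GL3 and EGL3 had every mutant library above (12.5%, against 6.23%). The same 7 of 32 genes (21.9%) had an unadjusted p under 0.05, against 18% of all tested genes. The test was edgeR's quasi-likelihood test, adjusted over all 20214 genes by the Benjamini-Hochberg method, as for every adjusted p below unless another tool is named. DESeq2 called 6 of the 32 (FLS1, UGT84A2, MYB111, PAP1, GL3 and EGL3), against 7.44% of all genes, and limma-voom called UGT84A2 and EGL3, against 3.59%.

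**Figure D2:**
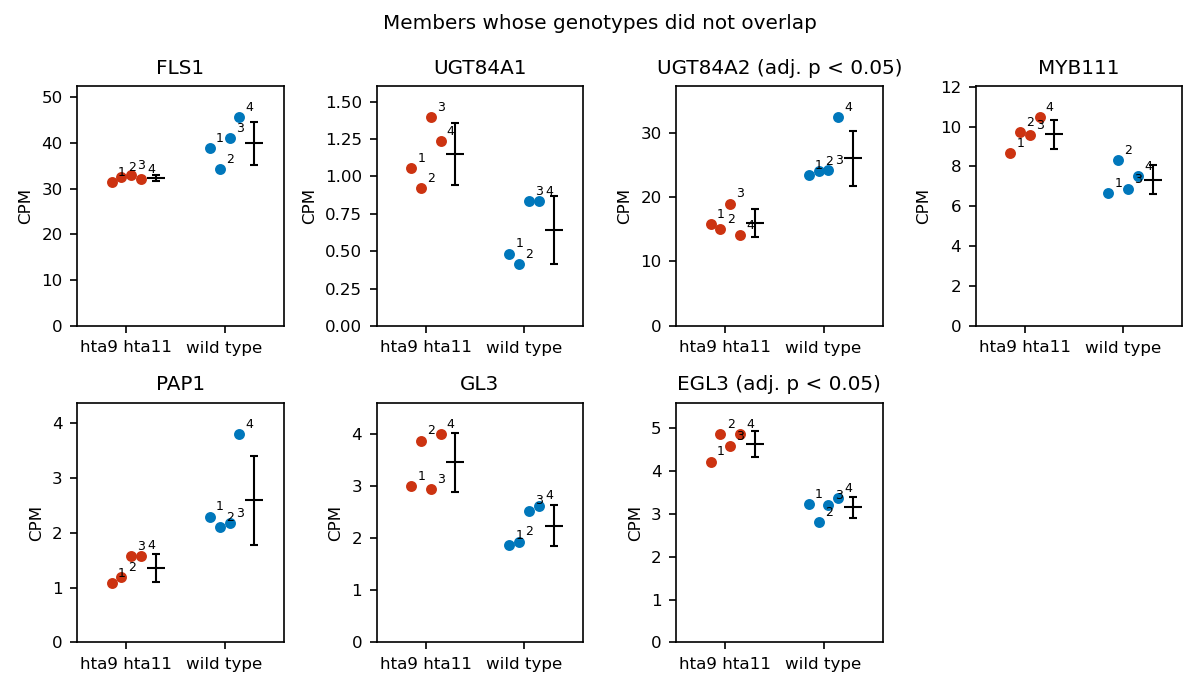
Level in CPM (y axis, from 0) in each library of hta9 hta11 (left) and wild type (right) for the 7 genes whose genotypes did not overlap, with numbered points for libraries 1 to 4 and a line at the mean. The mutant points are all lower for FLS1, UGT84A2 and PAP1 and all higher for UGT84A1, MYB111, GL3 and EGL3, and wild type library 4 is the topmost point for FLS1, UGT84A2 and PAP1.

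UGT84A2 (AT3G21560, chr3:7595680-7597607 on TAIR10.1, plus strand) encodes the glucosyltransferase that makes sinapoyl glucose, the precursor of the leaf sunscreen sinapoylmalate. It was at 15.8, 15, 19.0 and 14.1 CPM in hta9 hta11 and 23.4, 24.0, 24.2 and 32.4 CPM in wild type. All mutant libraries lay below all wild type libraries, and wild type library 4 was the highest of the 8. The mean was 16.0 ± 2.11 CPM in hta9 hta11 and 26.0 ± 4.26 CPM in wild type (SD, n = 4 each), 61.4% of the wild type mean. The log2 fold change was -0.70 with a standard error of 0.13 (adjusted p = 0.0162, edgeR's quasi-likelihood test), and without wild type library 4 it was -0.58 (adjusted p = 0.0281). Without hta9 hta11 library 2 the adjusted p was 0.0596, and without library 4 of the mutant it was 0.0702, which ended the call with the fold change at -0.68 and -0.65. Without libraries 1 and 3 of the mutant, which kept more HTA9 and HTA11 RNA, it was -0.84 (adjusted p = 0.0198). Other genes without overlap differed in this. In mutant libraries 2 and 4 PAP1 was at 1.19 and 1.59 CPM, beside 1.08 and 1.58 CPM in libraries 1 and 3. UGT84A1 was at 0.920 and 1.24 CPM, beside 1.06 and 1.39 CPM, so both were slightly nearer to wild type. FLS1 was at 32.5 and 32.1 CPM, beside 31.5 and 33.0 CPM. MYB111, at 9.72 and 10.5 CPM beside 8.68 and 9.58 CPM, was further away. The part of the HTA levels was not tested. In bulk tissue, fewer cells that express a gene and less RNA per cell cannot be told apart. The 250 bases before the annotated start of UGT84A2 are shown because this was the gene that fell. They hold no match, on either strand, to the G-box CACGTG, which bHLH and bZIP factors can bind, or to the AC elements I (ACCTACC), II (ACCAACC) and III (ACCTAAC), which MYB factors can bind. The sequence is from RefSeq, TAIR10.1, chr3:7595430-7595679, plus strand, written 5′ to 3′ with capitals only for such matches.
UGT84A2: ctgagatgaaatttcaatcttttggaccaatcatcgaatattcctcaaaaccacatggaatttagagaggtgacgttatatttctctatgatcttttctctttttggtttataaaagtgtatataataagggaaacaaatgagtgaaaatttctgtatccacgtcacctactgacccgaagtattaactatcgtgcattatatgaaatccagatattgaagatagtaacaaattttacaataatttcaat

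UGT84A1 (AT4G15480), a paralog that glucosylates hydroxycinnamates, had a positive fold change. It was at 1.06, 0.920, 1.39 and 1.24 CPM in hta9 hta11 and 0.482, 0.411, 0.835 and 0.833 CPM in wild type, from 178 counts in the mutant and 91 in wild type over 4 libraries each. No library of one genotype overlapped the other. The log2 fold change was 0.85 (95% interval 0.18 to 1.52) and did not pass (adjusted p = 0.126), and without wild type library 4 it was 0.99 (adjusted p = 0.121). Its exons overlap those of AT4G15475 on the opposite strand, and whether the authors counted by strand is not given in the sources used here. Per exon length, UGT84A2 made up 91.0% to 93.6% of the summed level of the pair in hta9 hta11 libraries and 96.3% to 98.1% in wild type libraries. These shares were bound not to overlap, because the levels of both genes already lay apart in opposite directions.

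The other genes of the sinapate and methylation step did not pass. FAH1 (AT4G36220), the ferulate hydroxylase on the way to sinapate, was at 78.6, 83.2, 88.7 and 82.9 CPM in hta9 hta11 and 85.7, 84.7, 87.9 and 108 CPM in wild type (log2 fold change -0.13, adjusted p = 0.479, and -0.048 without wild type library 4). OMT1 (AT5G54160), which methylates flavonols and lignin precursors, was at 84.4, 73.2, 94.7 and 83.5 CPM in hta9 hta11 and 84.3, 73.9, 88.3 and 96.3 CPM in wild type (log2 fold change -0.030, adjusted p = 0.913, and 0.030 without wild type library 4). For both, the genotypes overlapped and the highest library was wild type library 4, without which OMT1 turned positive.

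EGL3 (AT1G63650, chr1:23599413-23603164 on TAIR10.1, plus strand) encodes a bHLH factor that joins MYB factors and TTG1 in anthocyanin and trichome control. It was at 4.22, 4.87, 4.59 and 4.87 CPM in hta9 hta11 and 3.24, 2.81, 3.21 and 3.36 CPM in wild type. The lowest mutant library lay above the highest wild type library, and the spread within each genotype was small. The mean was 4.64 ± 0.308 CPM in hta9 hta11 and 3.15 ± 0.241 CPM in wild type (SD, n = 4 each), 147% of the wild type mean. The log2 fold change was 0.56 with a standard error of 0.11 (adjusted p = 0.0257, edgeR's quasi-likelihood test), and without wild type library 4 it was 0.59 (adjusted p = 0.0456). Leaving out library 2, 3 or 4 of the mutant or library 1, 2 or 3 of wild type ended the call, and over all 8 libraries left out in turn the adjusted p ran from 0.0196 to 0.0997. Without libraries 1 and 3 of the mutant together the log2 fold change was 0.63 (adjusted p = 0.0422). Its 250 bases before the annotated start, shown because this gene rose, hold none of the 4 motifs named above (RefSeq, TAIR10.1, chr1:23599163-23599412, plus strand, 5′ to 3′).
EGL3: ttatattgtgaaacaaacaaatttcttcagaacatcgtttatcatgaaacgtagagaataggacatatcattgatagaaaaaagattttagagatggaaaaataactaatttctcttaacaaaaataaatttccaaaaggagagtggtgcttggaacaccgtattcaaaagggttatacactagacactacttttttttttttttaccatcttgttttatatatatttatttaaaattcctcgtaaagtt

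GL3 (AT5G41315), the closest partner of EGL3 in function and a trichome regulator, was at 3.0, 3.88, 2.94 and 4.01 CPM in hta9 hta11 and 1.87, 1.94, 2.53 and 2.63 CPM in wild type. The genotypes did not overlap, and the log2 fold change of 0.63 (95% interval 0.21 to 1.05) missed the threshold (adjusted p = 0.0754), and it was 0.71 without wild type library 4 (adjusted p = 0.0832). Without libraries 1 and 3 of the mutant the fold change was 0.82 and passed (adjusted p = 0.0478). GL3 passed in 3 of 17 alternative settings, and in 0 of the 8 with a single library left out (adjusted p 0.0544 to 0.236). A lncRNA gene, AT5G06145, has exons on its opposite strand. The summed level of 5 listed trichome genes (GL1, GL2, MYB23, ETC2 and TCL1) was 17.5 to 26.7 CPM in hta9 hta11 and 18.2 to 25.0 CPM in wild type. The sum is not a count of trichomes, and the list was not divided into genes that promote and genes that repress them. Of the 5, edgeR's test called 0, DESeq2 1 and limma-voom 0. In edgeR's test 1 had an unadjusted p under 0.05, TCL1 (log2 fold change 0.74, adjusted p = 0.0809), with every mutant library above every wild type library. The others overlapped between genotypes, with log2 fold changes of 0.25 for GL1, 0.049 for GL2, -0.083 for MYB23 and -0.074 for ETC2. The third bHLH gene, TT8 (AT4G09820), which drives late anthocyanin genes, was at 2.15, 2.58, 2.63 and 2.29 CPM in hta9 hta11 and 1.96, 2.10, 1.94 and 4.03 CPM in wild type. Its log2 fold change was -0.049 with all libraries (adjusted p = 0.942) and 0.27 without wild type library 4 (adjusted p = 0.413), so the sign turned on that library. TTG1 (AT5G24520), the WD40 scaffold of the complex, was at 28.1, 33.5, 35.5 and 32.4 CPM in hta9 hta11 and 26.0, 28.9, 31.4 and 29.8 CPM in wild type (log2 fold change 0.16, adjusted p = 0.417, and 0.17 without wild type library 4).

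PAP1 (AT1G56650), the main MYB activator of anthocyanin genes in leaves, had the most negative fold change of the 32 genes and did not pass. It was at 1.08, 1.19, 1.58 and 1.59 CPM in hta9 hta11 and 2.3, 2.10, 2.18 and 3.81 CPM in wild type. Every mutant library lay below every wild type library, and wild type library 4 was far above the other 3. The log2 fold change was -0.94 with a standard error of 0.23 and a 95% interval of -1.51 to -0.36 (adjusted p = 0.0569), and -0.70 without wild type library 4 (adjusted p = 0.0966). With no filter on low counts its adjusted p was 0.0465, and with DESeq2 it was 0.00652, both past the threshold. PAP1 passed in 4 of 17 alternative settings, and in 0 of the 8 with a single library left out (adjusted p 0.0726 to 0.160). Its paralogs stand in tandem on chromosome 1, where reads of near-identical copies may be shared. MYB113 (AT1G66370) was at 0.528, 0.398, 0.620 and 0.699 CPM in hta9 hta11 and 0.454, 0.556, 1.02 and 0.672 CPM in wild type (log2 fold change -0.28, adjusted p = 0.692, and -0.28 without wild type library 4). PAP2 (AT1G66390) had 2, 5, 3 and 5 counts in hta9 hta11 libraries and 3, 5, 4 and 6 counts in wild type libraries. MYB114 (AT1G66380) had 11, 7, 5 and 8 counts in hta9 hta11 libraries and 2, 11, 10 and 6 counts in wild type libraries. At counts this low a modest difference was not detectable.

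The flavonol activators had positive fold changes and did not pass. MYB111 (AT5G49330) was at 8.68, 9.72, 9.58 and 10.5 CPM in hta9 hta11 and 6.67, 8.30, 6.84 and 7.53 CPM in wild type, with no overlap. Its log2 fold change was 0.39 (95% interval 0.14 to 0.64, adjusted p = 0.0675), and without wild type library 4 it was 0.40 (adjusted p = 0.114). MYB12 (AT2G47460), the other flavonol MYB of this set, was at 0.422, 0.721, 0.434 and 0.511 CPM in hta9 hta11 and 0.596, 0.242, 0.377 and 0.192 CPM in wild type, with overlap (log2 fold change 0.56, adjusted p = 0.461, and 0.38 without wild type library 4). MYBL2 (AT1G71030), a small MYB that represses anthocyanin genes, was at 4.92, 5.32, 6.38 and 5.81 CPM in hta9 hta11 and 8.12, 6.31, 4.55 and 8.17 CPM in wild type (log2 fold change -0.28, adjusted p = 0.469, and -0.18 without wild type library 4). TT2 (AT5G35550), the MYB of seed coat tannins, had 5 counts over the 4 hta9 hta11 libraries and 4 over the 4 wild type libraries. Across the 9 tested regulators the median log2 fold change was 0.16 with all libraries and 0.27 without wild type library 4, beside -0.0014 for all tested genes.

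The entry enzymes of the pathway overlapped between genotypes throughout. PAL1 (AT2G37040), a major leaf form of the deaminating enzyme, was at 66.8, 69.4, 71.2 and 76.4 CPM in hta9 hta11 and 64.5, 76.6, 88.5 and 106 CPM in wild type (log2 fold change -0.24, adjusted p = 0.381, and -0.11 without wild type library 4). PAL2 (AT3G53260) was at 58.2, 60.3, 66.6 and 62.9 CPM in hta9 hta11 and 55.5, 56.3, 71.4 and 74.7 CPM in wild type (log2 fold change -0.056, adjusted p = 0.833, and 0.021 without wild type library 4). The third member of this family in the set, PAL4 (AT3G10340), was at 7.09, 6.31, 9.11 and 7.29 CPM in hta9 hta11 and 5.53, 5.69, 7.11 and 10.8 CPM in wild type (log2 fold change 0.037, adjusted p = 0.949, and 0.28 without wild type library 4). Wild type library 4 was the highest of the 8 for all 3, and without it PAL2 turned positive. C4H (AT2G30490), the hydroxylase of cinnamate, was at 129, 106, 125 and 125 CPM in hta9 hta11 and 125, 116, 142 and 143 CPM in wild type (log2 fold change -0.12, adjusted p = 0.576, and -0.073 without wild type library 4).

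The 4CL enzymes activate coumarate, 4CL1 and 4CL2 mostly toward lignin and 4CL3 toward flavonoids. 4CL1 (AT1G51680) was at 94.6, 107, 114 and 108 CPM in hta9 hta11 and 89.9, 99.8, 103 and 104 CPM in wild type (log2 fold change 0.095, adjusted p = 0.602, and 0.12 without wild type library 4). 4CL2 (AT3G21240) was at 10.5, 11.0, 12.2 and 10.2 CPM in hta9 hta11 and 8.63, 9.99, 9.70 and 11.2 CPM in wild type (log2 fold change 0.15, adjusted p = 0.479, and 0.21 without wild type library 4). 4CL3 (AT1G65060) was at 19.0, 21.7, 25.8 and 21.5 CPM in hta9 hta11 and 24.2, 23.4, 25.9 and 34.0 CPM in wild type (log2 fold change -0.29, adjusted p = 0.289, and -0.16 without wild type library 4). None of the 3 genes passed. Per exon length, 4CL1 made up 71.9% to 74.3% of their summed level in hta9 hta11 libraries and 66.4% to 71.8% in wild type libraries. 4CL3 made up 17.0% to 18.7% in hta9 hta11 libraries and 19.4% to 25.0% in wild type libraries, so neither share overlapped, although the 4CL1 shares lay close, while the 4CL2 share of 8.57% to 9.93% in hta9 hta11 libraries overlapped that of 8.20% to 8.77% in wild type libraries. Of 6 families and factor groups compared in this way, the shares of PAL, UGT78D, flavonol MYB and anthocyanin bHLH genes overlapped between genotypes. These shares were not tested. The shares of one family are bound to sum to a whole, and 4CL1 has exons of a gene on its opposite strand.

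Of the early flavonoid genes, 4 of 4 had their highest level in wild type library 4. CHS (AT5G13930), chalcone synthase, was at 132, 170.2, 172 and 167 CPM in hta9 hta11 and 125, 141, 151 and 224 CPM in wild type. The mutant libraries other than library 1 lay close together, between the third and the fourth wild type library. Its log2 fold change was 0.0024 (95% interval -0.41 to 0.42) with all libraries and 0.21 without wild type library 4 (adjusted p = 0.997 and 0.397). CHI (AT3G55120), chalcone isomerase, was at 17.5, 22.5, 22.9 and 22.7 CPM in hta9 hta11 and 16.5, 15.8, 17.8 and 22.9 CPM in wild type (log2 fold change 0.23, adjusted p = 0.41, and 0.35 without wild type library 4). F3H (AT3G51240), which makes dihydroflavonols, was at 18.2, 19.7, 18.1 and 21.5 CPM in hta9 hta11 and 19.9, 19.2, 20.6 and 30.5 CPM in wild type (log2 fold change -0.22, adjusted p = 0.477, and -0.040 without wild type library 4). Their genotypes overlapped, and wild type library 4 stood well above all others for F3H. F3'H (AT5G07990), which adds a hydroxyl to the B ring, was at 5.57, 8.82, 7.93 and 7.15 CPM in hta9 hta11 and 4.99, 8.13, 7.46 and 19.2 CPM in wild type. That last library was 2.80 times the mean of the other 3 wild type libraries, and the log2 fold change of -0.43 became 0.097 without it.

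In the flavonol branch, the 3 genes had negative fold changes with all libraries and without wild type library 4. FLS1 (AT5G08640), flavonol synthase, was at 31.5, 32.5, 33.0 and 32.1 CPM in hta9 hta11 and 38.9, 34.3, 41.1 and 45.6 CPM in wild type. The mutant libraries spanned a narrow range below all wild type libraries. The log2 fold change was -0.31 with a 95% interval of -0.53 to -0.092 (adjusted p = 0.0908), and -0.24 without wild type library 4 (adjusted p = 0.178). UGT78D2 (AT5G17050), a glucosyltransferase of flavonols and anthocyanidins, was at 22.6, 22.7, 26.3 and 28.4 CPM in hta9 hta11 and 25.1, 25.9, 28.7 and 42.7 CPM in wild type (log2 fold change -0.29, adjusted p = 0.394, and -0.090 without wild type library 4). UGT78D1 (AT1G30530), a flavonol rhamnosyltransferase, was at 62.8, 62.0, 70.3 and 71.6 CPM in hta9 hta11 and 69.9, 63.4, 71.9 and 84.5 CPM in wild type (log2 fold change -0.12, adjusted p = 0.58, and -0.038 without wild type library 4). The branch median was -0.29 with all libraries and -0.090 without wild type library 4.

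**Figure D3:**
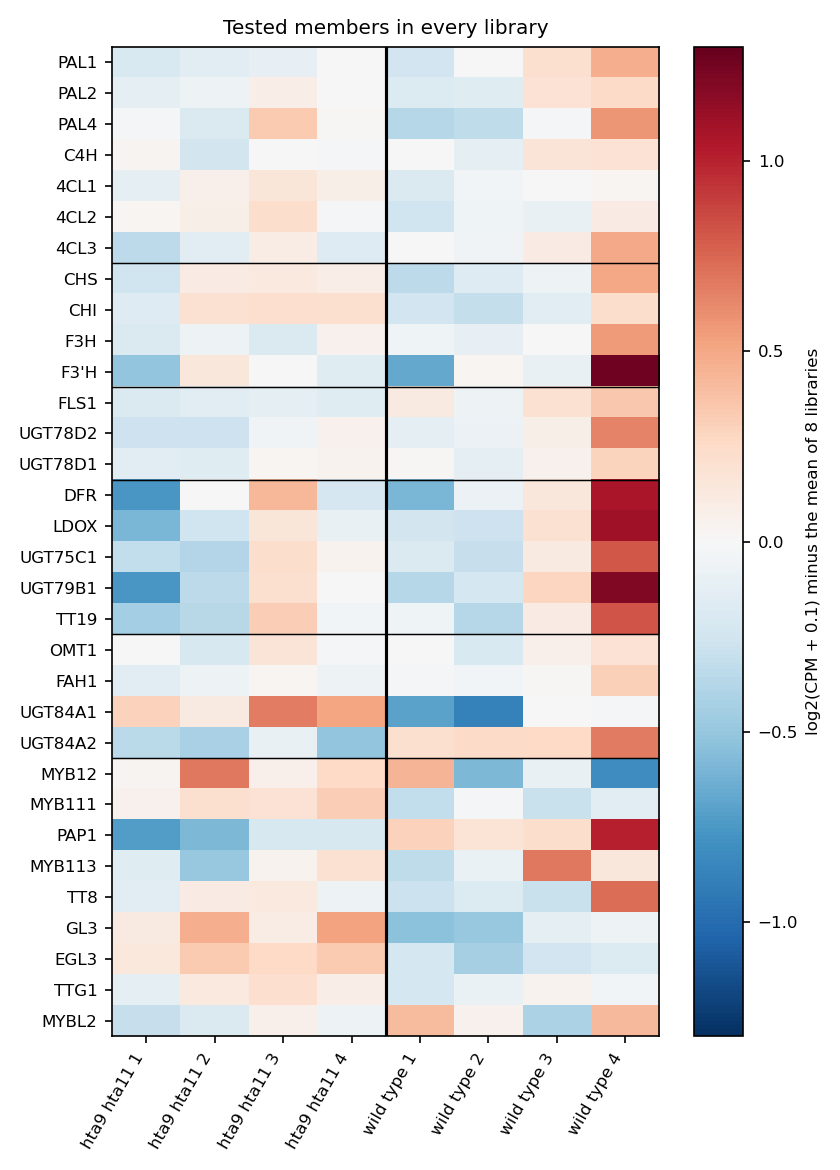
Level of each tested gene (rows, by pathway step) in each library (columns, hta9 hta11 left and wild type right), by colour, as log2 of CPM plus 0.1 minus its mean over the 8 libraries (red higher, blue lower). The column of wild type library 4 is deep red in the late anthocyanin rows, where its median level was 2.27 times that of the other wild type libraries.

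The late anthocyanin genes had a wide spread within each genotype and none passed. DFR (AT5G42800), dihydroflavonol reductase, was at 19.8, 33.4, 45.1 and 28.8 CPM in hta9 hta11 and 22.2, 31.7, 37.2 and 70.2 CPM in wild type. LDOX (AT4G22880), which forms the coloured anthocyanidins, was at 20.7, 26.2, 35.0 and 29.2 CPM in hta9 hta11 and 26.5, 26.0, 36 and 67.1 CPM in wild type. UGT75C1 (AT4G14090), an anthocyanin glucosyltransferase, was at 16.7, 16.0, 24.5 and 21.4 CPM in hta9 hta11 and 18.2, 16.9, 22.6 and 36.4 CPM in wild type. In each, wild type library 4 was the highest of the 8 and the genotypes overlapped. UGT79B1 (AT5G54060), an anthocyanin xylosyltransferase, was at 6.59, 8.80, 12.9 and 11.2 CPM in hta9 hta11 and 8.63, 9.51, 13.6 and 25.8 CPM in wild type. TT19 (AT5G17220), a glutathione S-transferase needed to bring anthocyanins into the vacuole, was at 13.0, 13.7, 22.1 and 17.3 CPM in hta9 hta11 and 17.1, 13.7, 19.1 and 31.2 CPM in wild type. BAN (AT1G61720), which diverts anthocyanidins to seed coat tannins, had 3 counts over the 4 hta9 hta11 libraries and 5 over the 4 wild type libraries.

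With all 8 libraries the 5 late genes had log2 fold changes of -0.26 to -0.54 with a median of -0.34, and adjusted p-values of 0.422 to 0.653. Without wild type library 4 they ran from -0.10 to 0.060 with a median of -0.0096, and 3 of 5 stayed negative. That library was the highest of the 8 for each of the 5, so leaving it out was bound to raise their fold changes. DFR was at -0.34 with all libraries and 0.060 without that one, and UGT75C1 at -0.26 and 0.028, both with a turn of sign. LDOX was at -0.49 with all libraries and -0.090 without it, UGT79B1 at -0.54 and -0.10, and TT19 at -0.29 and -0.0096. Over all 17 alternatives the lowest values were -0.57 for DFR, -0.64 for LDOX, -0.39 for UGT75C1, -0.72 for UGT79B1 and -0.47 for TT19. Over all 32 genes, 21 were negative with all libraries (65.6%, against 50.3% of all tested genes) and 15 without wild type library 4. The median within-genotype SD of log2 level was 0.50 for the late genes, 0.26 for the early flavonoid genes, 0.14 for the flavonol branch and 0.17 for the general phenylpropanoid genes. Among the 12341 tested genes with a mean of 5 to 75 CPM that SD had a median of 0.14 and a 95th percentile of 0.34.

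Each of the 5 late genes was highest in library 3 of the mutant and in library 4 of wild type, while the order of the other libraries differed between genes. Their summed level was 76.8, 98.2, 139.6 and 108.0 CPM in hta9 hta11 libraries and 92.7, 97.8, 128.4 and 230.7 CPM in wild type libraries. In this sum library 1 was the lowest of each genotype. The main component of variation shared by all genes within genotypes took 40.3% of that variance, and its scores were -27.6, 16.1, 22.1 and -10.5 in hta9 hta11 and -25.8, 12.8, -15.1 and 28.1 in wild type. Its extremes fell on the libraries with the highest and lowest sums in each genotype, while the middle libraries were in the other order. The summed level of 12 rapid response genes, which handling or touch can raise, was 243.8, 152.1, 124.3 and 189.7 CPM in hta9 hta11. In wild type it was 340.0, 240.6, 326.0 and 292.7 CPM, so for this sum wild type library 4 was inside the range of its genotype. Single genes differed. In wild type library 4 TCH4 was at 102 CPM, with the other wild type libraries at 48.5 to 72.3 CPM. RRTF1 was at 2.98 CPM in it, with the others at 11.8 to 22.8 CPM. That library was the highest of the wild type libraries for 2 of the 12 genes, and for others, RRTF1 among them, the lowest. Between genotypes, 3 of the 12 passed, all lower in hta9 hta11 (25%, against 1.25% of all tested genes lower). The median log2 fold change of the list was -0.47, with 7 negative and 5 positive. The part of this difference in the pathway results was not tested. PYK10 was the only 1 of 4 root markers with enough counts to be tested. It was at 71.2, 60.6, 77.5 and 94.7 CPM in hta9 hta11 and 70.5, 69.6, 83.8 and 116 CPM in wild type, highest in wild type library 4. The other root markers, RHD6, COBL9 and SMB, had 0 to 4 counts in each library. The part of the rapid response genes and of PYK10 in the late gene values was not tested.

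**Figure D4:**
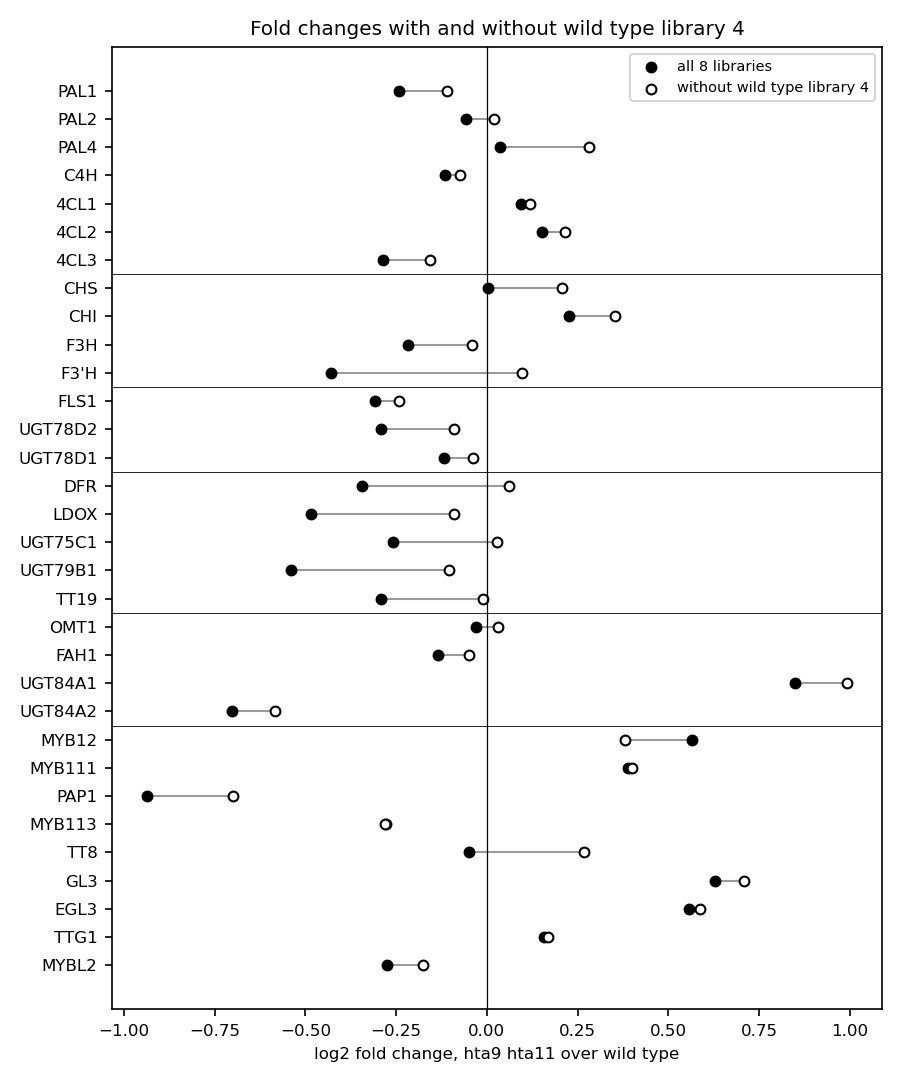
Log2 fold change of hta9 hta11 over wild type (x axis) for each tested gene (rows, with lines between pathway steps) with all 8 libraries (filled) and without wild type library 4 (open). The late genes have a median of -0.34 with all libraries and -0.0096 without that one, while UGT84A2 and EGL3 keep their side of 0 at -0.58 and 0.59. Wild type library 4 was the highest of the 8 for each late gene, so a rise without it was bound to follow.

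By the median over genes, the lead of wild type library 4 was widest in the late anthocyanin genes among the steps of the set. Single genes outside that step led as far, such as F3'H at 2.80 times. Its level relative to the other 3 wild type libraries had a median over genes of 1.22 times for the general phenylpropanoid genes, 1.57 times for early flavonoid genes, 1.23 times for the flavonol branch and 2.27 times for late genes. It was 1.3 times for the sinapate and methylation step, 1.09 times for regulators and 0.99 times over all tested genes. Among enzymes outside the set, it was 1.40 times for 12 other flavonol and anthocyanin enzymes and 1.02 times for 12 lignin and sinapate enzymes. Of the former list, 11 genes lay above the mean of the other wild type libraries and 1 below. In wild type library 4, 3AT2 was at 7.78 CPM (1.70 to 3.17 CPM in the other wild type libraries). There 3AT1 was at 12.3 CPM (others 3.66 to 5.74 CPM) and 5MAT at 16.7 CPM (others 7.01 to 7.68 CPM). Of the factors that drive late genes, PAP1 and TT8 were at 1.74 and 2.02 times the mean of the other wild type libraries in that library. EGL3, GL3 and TTG1 were at 1.09, 1.24 and 1.04 times that mean. MYB113, a paralog of PAP1 with few counts, was at 0.99 times it, and the repressor MYBL2 at 1.29 times.

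Promoters of 3 flavonoid genes are shown because they carry the G-box: CHS, the entry enzyme of the flavonoid branch, and DFR and UGT79B1, of the late step that had the widest spread within genotypes. They were chosen after the values were seen. The G-box stands in capitals, 233 to 228 bases before the start of CHS (chr5:4488226-4488475, plus strand), 14 to 9 bases before that of DFR (chr5:17166033-17166282, minus strand), and 171 to 166 and 128 to 123 bases before that of UGT79B1 (chr5:21938397-21938646, minus strand), all RefSeq TAIR10.1 and written 5′ to 3′ on the strand of the gene.
CHS: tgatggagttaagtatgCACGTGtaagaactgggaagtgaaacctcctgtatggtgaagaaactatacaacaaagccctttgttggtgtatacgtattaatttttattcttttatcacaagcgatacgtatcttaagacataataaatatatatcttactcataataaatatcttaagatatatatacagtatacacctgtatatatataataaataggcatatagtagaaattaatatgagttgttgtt
DFR: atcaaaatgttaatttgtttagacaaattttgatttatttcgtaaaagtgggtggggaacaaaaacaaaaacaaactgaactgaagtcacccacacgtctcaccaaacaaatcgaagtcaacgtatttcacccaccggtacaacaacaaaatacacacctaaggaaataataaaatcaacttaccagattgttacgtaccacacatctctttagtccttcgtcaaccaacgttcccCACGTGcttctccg
UGT79B1: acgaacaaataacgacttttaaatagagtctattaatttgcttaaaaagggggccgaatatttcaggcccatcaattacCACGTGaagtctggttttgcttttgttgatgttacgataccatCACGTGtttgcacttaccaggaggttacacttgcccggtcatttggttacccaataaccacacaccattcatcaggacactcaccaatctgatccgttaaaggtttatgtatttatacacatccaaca
In the 250 bases before the annotated start, CACGTG, which reads the same on both strands, stood in 9 of the 36 genes (25%) and in 6.49% of 27443 protein-coding genes. The 9 were PAL4, CHS, F3H, DFR, BAN, UGT79B1, MYB12, PAP2 and MYB114. An AC element of any of the 3 kinds stood on either strand in 5 of 36 (13.9%) and in 6.12% of protein-coding genes. The 5 were 4CL2, 4CL3, UGT75C1, MYB114 and TT8. No match of an AC element overlapped a G-box in these windows. A match describes the letters in this window and is not a measured binding site.

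**Figure D5:**
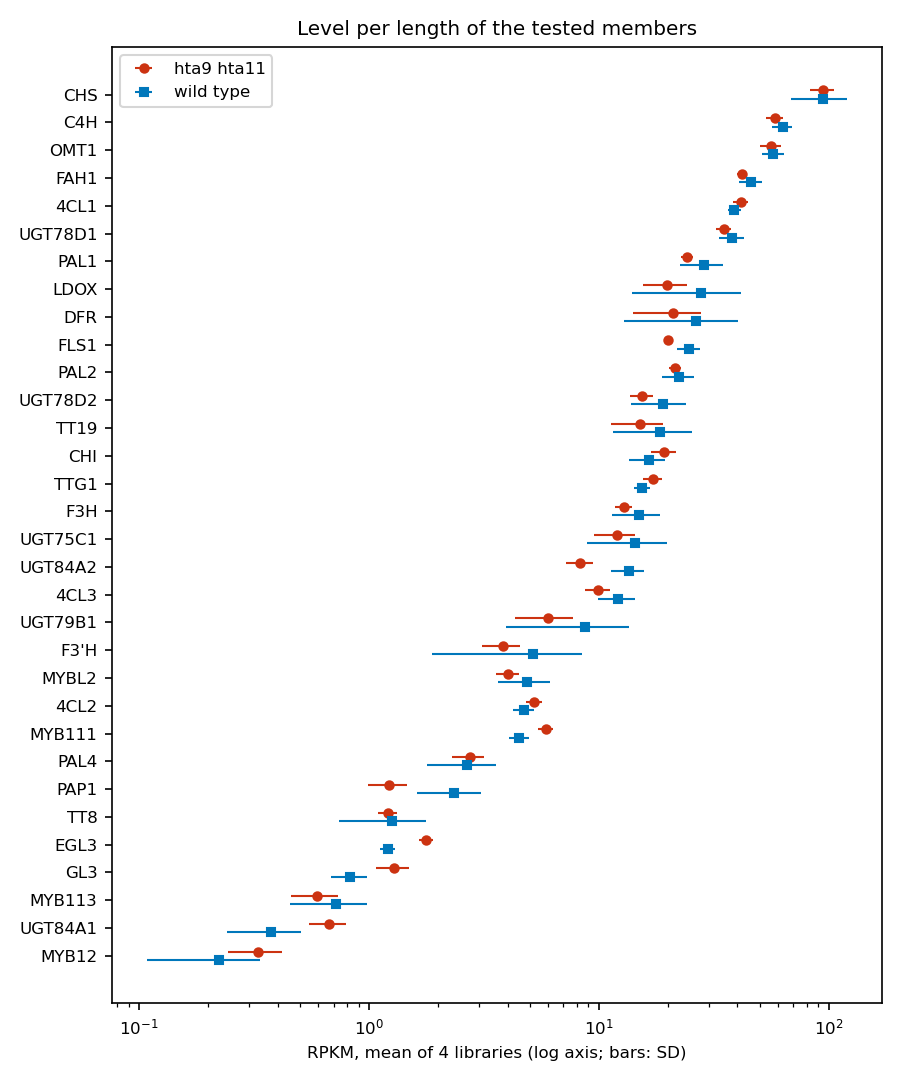
Mean level per exon length (x axis, log scale, CPM per kilobase of exon, RPKM) of each tested gene in hta9 hta11 (upper of each pair) and wild type (lower), with bars for the SD over 4 libraries. CHS is the highest in both genotypes and MYB12 the lowest.

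Per exon length the genes spanned a wide range in both genotypes. CHS was the highest with 94.2 ± 11.2 CPM per kilobase of exon (RPKM) in hta9 hta11 and 94.1 ± 25.8 in wild type (SD, n = 4 each). Exons of another gene overlap those of CHS on the opposite strand, so its count is less certain. C4H followed with 58.2 ± 4.82 RPKM in hta9 hta11 and 63.1 ± 6.33 in wild type, then OMT1 with 56.1 ± 5.86 RPKM in hta9 hta11 and 57.3 ± 6.24 in wild type. C4H and OMT1 lay within each other's spread in both genotypes. Of the 9 tested regulators, TTG1 was the highest at 17.2 ± 1.66 RPKM in hta9 hta11 and 15.4 ± 1.21 in wild type and MYB12 the lowest at 0.330 ± 0.0874 RPKM in hta9 hta11 and 0.222 ± 0.114 in wild type.

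Of 52 other genes of the pathway on 4 lists, 44 were tested and 3 passed (6.82%, against 3.74% of all genes), all regulators. MYB4 (AT4G38620), a MYB repressor of C4H and of sinapate ester synthesis, was at 22.1, 21.4, 21.7 and 21.8 CPM in hta9 hta11 and 14.4, 16.0, 16.1 and 15.1 CPM in wild type. It rose with a log2 fold change of 0.50 (standard error 0.069, adjusted p = 0.00571) and passed under all 17 alternatives. LBD37 (AT5G67420), a nitrogen-responsive repressor of anthocyanin genes, was at 63.5, 54.7, 66.3 and 54.5 CPM in hta9 hta11 and 96.9, 86.4, 73.6 and 89.2 CPM in wild type. It fell with a log2 fold change of -0.53 (adjusted p = 0.0204), and with single libraries left out the adjusted p ran from 0.0202 to 0.0845. LBD39 (AT4G37540), of the same family and role, was at 19.6, 14.7, 14.7 and 16.3 CPM in hta9 hta11 and 31.0, 25.9, 22.0 and 24.5 CPM in wild type. It fell with a log2 fold change of -0.66 (adjusted p = 0.021), and with single libraries left out the adjusted p ran from 0.00709 to 0.0753. All mutant libraries lay above all wild type libraries for MYB4 and below them for both LBD genes. Of the 18 tested genes on this list, 10 had an unadjusted p under 0.05 in edgeR's test, 6 higher and 4 lower (18% of all tested genes did). For 5 of the 18 the genotypes did not overlap, against 11.3% of all tested genes. DESeq2 called 7 of the 18, against 7.44% of all genes, and limma-voom 3, against 3.59%.

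No gene of the other 3 lists passed edgeR's test. Of 12 tested lignin and sinapate enzymes 2 had an unadjusted p under 0.05 (16.7%, against 18% of all tested genes), DESeq2 called 2 (against 7.44% of all genes) and limma-voom 0, and the median log2 fold change was -0.00064. The most abundant were REF1, the aldehyde dehydrogenase that yields sinapate and ferulate, at 169 ± 3.64 CPM in hta9 hta11 and 175 ± 7.2 CPM in wild type, and SNG1, which turns sinapoyl glucose into sinapoylmalate, at 166 ± 27.4 CPM in hta9 hta11 and 169 ± 14.7 CPM in wild type (SD, n = 4 each). Of 12 other flavonol and anthocyanin enzymes 3 had an unadjusted p under 0.05 (25%, against the same 18%), DESeq2 called 1 and limma-voom 0, and the median was -0.26 with all libraries and -0.032 without wild type library 4. RHM1, a UDP-rhamnose synthase, was at 119 ± 17.2 CPM in hta9 hta11 and 156 ± 34.2 CPM in wild type, and UGT89C1, a flavonol rhamnosyltransferase, at 45.3 ± 4.69 CPM in hta9 hta11 and 60.3 ± 10.4 CPM in wild type. Of 6 genes of tannins and the seed coat 2 were tested, with 0 at an unadjusted p under 0.05 and 0 called by DESeq2 or limma-voom. TTG2, a WRKY factor, was at 5.21 ± 0.998 CPM in hta9 hta11 and 5.79 ± 1.34 CPM in wild type, and AHA10, a proton pump, at 1.34 ± 0.255 CPM in hta9 hta11 and 1.55 ± 0.323 CPM in wild type.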

How the data were processed

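The authors deposited raw gene counts, whole numbers, as 1 column for each of the 8 libraries, and 0 columns of values were left unused. Libraries were matched to genotypes by their names in the labels, which list 4 replicates of each genotype while the protocol text speaks of fewer. Each library is a pool of 5 plants. The submitters' processing notes name the build TAIR10 and the tools HISAT2 2.2.1, fastp 0.23.2, SAMtools 1.17, limma and DESeq2. Per the labels' protocols the kit was directional. How reads were counted, whether by strand, and what became of multi-mapping reads is not given in the sources used here, so counts of overlapping genes and close copies are uncertain. In the set, 4CL1, CHS, F3H, UGT75C1, TT19, UGT84A1 and GL3 have exons that overlap those of another gene on the opposite strand.

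Counts were filtered with filterByExpr and scaled by TMM in edgeR 4.0.16 (R 4.3.3), which left 20214 genes. Genotype was tested 2-sided with edgeR's quasi-likelihood test over all 8 libraries, with Benjamini-Hochberg adjustment over all genes tested and a threshold of 0.05. Standard errors were derived from the fold change and the F statistic, and 95% intervals used the t distribution on 6 residual degrees of freedom. Fold changes are hta9 hta11 over wild type. The scripts were tested on simulated data. Alternatives were DESeq2 1.42.0, limma-voom (limma 3.58.1), other scalings and filters, libraries left out, a replicate block, and the main shared component of the residuals as a covariate, which is estimated from the same libraries. Names, positions and the 250 bases before annotated starts came from RefSeq TAIR10.1, read from the genome given with the data.

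The 36 genes, the lists and the tests were chosen with earlier results of these data known. All 36 are named. Of each list of other pathway genes, those that passed are named and, where fewer than 2 passed, the genes of highest mean CPM up to 2.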

Additional observations from a re-analysis of the deposited data

Results flagged for a closer look

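In 9 of 90 groups of 4 libraries of 1 genotype, covering the levels of the 36 genes and of listed genes, 1 library lay far from the other 3 by Dixon's criterion at 95%. Chance alone flags about 1 in 20 such groups. Wild type library 4 was the outlying library in 6 of the 9, and was the highest each time. There F3H was at 30.5 CPM, with the other wild type libraries at 19.2 to 20.6 CPM. FAH1 was at 107.6 CPM in that library, with the others at 84.7 to 87.9 CPM. UGT84A2 was at 32.4 CPM, with the others at 23.4 to 24.2 CPM. Of the regulators, PAP1 was at 3.81 CPM, with the others at 2.10 to 2.3 CPM, and TT8 at 4.03 CPM, with the others at 1.94 to 2.10 CPM. TTG2, the WRKY factor outside the set, was at 7.78 CPM, with the others at 4.84 to 5.28 CPM.

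In the mutant, library 1 was low for the first enzymes of the flavonoid branch. CHS was at 131.9 CPM in it, with the other hta9 hta11 libraries at 167.4 to 172.3 CPM, and CHI was at 17.5 CPM, with the others at 22.5 to 22.9 CPM. TTG2 was high in hta9 hta11 library 3 at 6.69 CPM, with the others at 4.54 to 4.90 CPM.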

How the results depend on the processing

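The fold changes of UGT84A2 and EGL3 kept their direction under all 17 alternatives. UGT84A2 passed in 15 of them (adjusted p 4.50e-05 to 0.0702) and EGL3 in 11 (adjusted p 0.00205 to 0.0997). Over all genes, 757 passed with edgeR, 1504 with DESeq2, 2262 with the shared component as a covariate and 208 to 1246 with single libraries left out. Of the 32 genes, 1 was higher and 1 lower. With DESeq2 or the covariate these counts were 3 higher and 3 lower. Without libraries 1 and 3 of the mutant 2 were higher, with no count filter 2 were lower, and with single libraries left out 0 to 2 were higher and 0 to 2 lower. Over all tested genes the share called was 7.44% with DESeq2, 11.2% with the covariate and 3.1% with no count filter. It was 4.53% without libraries 1 and 3 of the mutant and 1.02% to 6.13% with single libraries left out. Of the other pathway genes 1 was higher and 2 lower. The counts were 4 higher and 6 lower with DESeq2, 6 higher and 7 lower with the covariate, and 1 to 3 higher and 0 to 4 lower with single libraries left out, and upper-quartile scaling gave 2 higher. That scaling moved the median of all genes to 0.022 and called 552 genes higher and 195 lower, beside 504 and 253 with TMM. The cause of these moves was not tested.

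The replicate block gave 847 genes over all, 2 of the 32 genes lower (PAP1 joined UGT84A2) and 2 higher and 5 lower of the other pathway genes. The labels do not say whether the numbers pair the samples. Deviations of same-numbered libraries correlated at 0.40, 0.35, -0.28 and -0.20, and 4 of 8 libraries correlated best with their own number, which does not settle it.

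Of the 32 genes 8 changed sign somewhere, none of which had passed. Without wild type library 4 the log2 fold change was 0.021 for PAL2, 0.097 for F3'H, 0.060 for DFR and 0.028 for UGT75C1. With single libraries left out it ran from -0.12 to 0.021 for PAL2, -0.65 to 0.097 for F3'H, -0.57 to 0.060 for DFR, -0.39 to 0.028 for UGT75C1, -0.076 to 0.28 for PAL4, -0.10 to 0.21 for CHS, -0.099 to 0.030 for OMT1 and -0.15 to 0.27 for TT8. PAL4 was at -0.094 without libraries 1 and 3 of the mutant. CHS was at -0.00025 with RLE scaling, -0.0016 with no count filter and -0.00031 with DESeq2, and TT8 at 0.0055 with the replicate block and 0.029 with limma-voom. The flavonol branch median ran from -0.37 to -0.090, with -0.090 without wild type library 4.

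Depth limits BAN, PAP2, MYB114 and TT2, which had 3 to 31 counts per genotype, and UGT84A1, MYB12 and MYB113, which stood at 0.192 to 1.39 CPM.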
